A study of Homo sapiens with 2 samples.

Results

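The nuclear receptor genes described here are 43 listed members of the nuclear receptor superfamily, found by a fixed list of names that uses no measured value. All 43 were found among the 24991 gene names that the files give for both libraries. The list is not the whole superfamily, since HNF4A and NR5A2, for example, are not in it.

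Nuclear receptors are transcription factors, most of which carry a DNA-binding domain of paired zinc fingers and a pocket that binds small lipophilic ligands such as steroids, thyroid hormone, retinoids, oxysterols, bile acids and fatty acids. Many of them bind DNA as heterodimers with a retinoid X receptor (RXR), and they recruit corepressors or coactivators according to the ligand. In the liver they set the programmes of fatty acid oxidation, bile acid and cholesterol handling, drug metabolism and gluconeogenesis.

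RNA was sequenced from the liver cancer line PLC, transduced either with the lentiviral pCDH vector alone (EV) or with the vector bearing PRSS35, a secreted serine protease, for stable over-expression. Each condition has 1 library, so no difference between them has a replicate check and no test was made. The EV library is labelled wild type, and both libraries are labelled as untreated. Growth medium was DMEM with 25 mM glucose and 10% FBS, and it is not stated whether the sequenced cells were serum starved. How many cell clones each stable line held is not given in the sources used here. Values are FPKM, fragment numbers scaled to transcript length and library size, so that levels can be compared between genes. The bounds given beside them are the lower and upper limits that the deposited tables hold for each FPKM. These bounds cover error within a library only, and leave out any variation between cultures. Fragments are given where they matter as the number that the width of the bounds corresponds to, which is not a read count and may also fall where reads are assigned with less certainty. A gene was called expressed where its FPKM averaged 1 or more across EV and PRSS35, which 10133 names reached. A change is the log2 ratio of PRSS35 over EV after 1 was added to each FPKM, and on this scale changes of low genes come out too small.

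The fragments behind the values, estimated from the bounds of single-exon genes, came to 31458106 in EV and 31541213 in PRSS35. PRSS35 itself, which checks the labels, stood at 0.643 FPKM in EV and 1836 in PRSS35. Of 11 hepatocyte markers, 10 were expressed, but albumin (ALB) stood at only 4.05 FPKM in EV and 5.21 in PRSS35, and the fibrinogen gene FGB was under 1 FPKM. Summed over the list, hepatocyte markers held 8648 FPKM in EV and 9815 in PRSS35. Most of this came from the keratin genes KRT18, at 2781 and 2315 FPKM, and KRT8, at 2456.5 and 2344, and from SERPINA1, at 2528 and 4239. Fibroblast markers summed to 1.75 and 2.03 FPKM, with COL3A1, DCN and LUM listed at 0. Endothelial markers summed to 0.0373 and 0.0307 FPKM. Leukocyte markers summed to 391.3 and 381.8 FPKM, nearly all of it LYZ and a locus whose joined label names CD68 and MPDU1, while PTPRC and CD3E were listed at 0 in both libraries. An FPKM of exactly 0 in these tables can be a failed estimate. NDUFB10, a subunit of respiratory complex I that cells generally use, has 0 in the EV table and 536.7 in that of PRSS35, and EDF1, a transcriptional coactivator gene, has 724.7 and 0. No fold is therefore given against a value of 0. In bulk RNA, fewer cells that express a gene and less RNA per cell cannot be told apart.

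What most members share is the first zinc finger of their DNA-binding domain. Its last codons form the P box, whose residues set which DNA motif a receptor reads. The coding exons of all 43 members were read from GRCh37, the assembly that hg19 is based on, and searched for the spacing of this finger, which spans 23 codons (69 bases). The pattern was found in 41 members. It was absent from NR0B1 and NR0B2, orphan members known to lack a DNA-binding domain. Fingers of 5 members that the results turn on are shown 5′ to 3′ on the coding strand, with the 3 codons that differ between receptor classes in capitals. In each of them the finger lies within 1 coding exon. They are NR2F6 at chr19:17355796-17355864 on the minus strand, NR4A1 at chr12:52448911-52448979 on the plus strand, NR1H2 at chr19:50881483-50881551 on the plus strand, ESRRA at chr11:64074886-64074954 on the plus strand, and NR3C1 at chr5:142693589-142693657 on the minus strand.
NR2F6: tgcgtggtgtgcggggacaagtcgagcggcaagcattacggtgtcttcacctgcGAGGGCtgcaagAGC
NR4A1: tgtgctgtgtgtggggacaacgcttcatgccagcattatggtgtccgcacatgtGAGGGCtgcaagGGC
NR1H2: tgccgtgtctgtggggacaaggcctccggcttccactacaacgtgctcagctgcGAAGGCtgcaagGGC
ESRRA: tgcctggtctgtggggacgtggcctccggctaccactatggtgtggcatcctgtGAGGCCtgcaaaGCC
NR3C1: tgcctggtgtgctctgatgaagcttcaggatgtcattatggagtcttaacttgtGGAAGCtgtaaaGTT

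The same 3 encoded residues as in NR4A1 and NR1H2 were found in 27 members. Among them are every RXR and all 14 genes counted below as RXR partners. These 27 genes held 53.0% of the FPKM of all members with the finger in EV and 43.8% in PRSS35. The COUP-TF genes NR2F1, NR2F2 and NR2F6 formed a class of 3 that held 46.4% in EV and 42.8% in PRSS35, nearly all of it from NR2F6. The estrogen-related receptors ESRRA, ESRRB and ESRRG formed another class of 3, with 0.0118% in EV and 12.7% in PRSS35, where the low share in EV rests on ESRRA being listed at 0. The 84.2 FPKM of ESRRA enter the total in PRSS35 only and lower the shares of all other classes there. In FPKM the COUP-TF class was in fact higher in PRSS35, at 273.6 in EV and 283.5 in PRSS35. The 27 genes summed to 312.7 FPKM in EV and 290.4 in PRSS35. The steroid class of NR3C1, NR3C2 and PGR held 0.437% and 0.48%. In PRSS35 these shares of the 27 genes and of the COUP-TFs lay close together, at 290.4 and 283.5 FPKM in sum, and the gap is smaller than the width of the bounds of NR2F6 alone.

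Of the 43 members, 21 were expressed (48.8%), beside 40.5% of all names. The levels ran over a wide range, and 12 members had a mean of 10 FPKM or more. Between the libraries they differed little: in 20 of the 21 expressed members, those above 0 in both libraries, the log2 change lay between -0.25 and 0.32. The median log2 change of the 21 was -0.03, beside 0.06 over all 10133 expressed genes. In size regardless of sign, the median change was 0.14 over the 20 members and 0.17 over all expressed genes above 0 in both libraries. Past 2-fold in either direction was 1 expressed member (4.76%), beside 3.73% of all expressed genes. This member, ESRRA, was higher in PRSS35, beside 1.89% of all expressed genes, and it passed only by being listed at 0 in EV. Lower by 2-fold or more were 0 members, beside 1.84% of all expressed genes. The bounds of EV and PRSS35 were separate in 7 of the 21 members (33.3%), beside 39.0% of all expressed genes. Of these, 4 were higher in PRSS35, ESRRA among them (24.7% of all genes), and 3 were lower (14.3% of all genes). The share of members with separate bounds was therefore close to the background, or slightly under it.

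**Figure D1:**
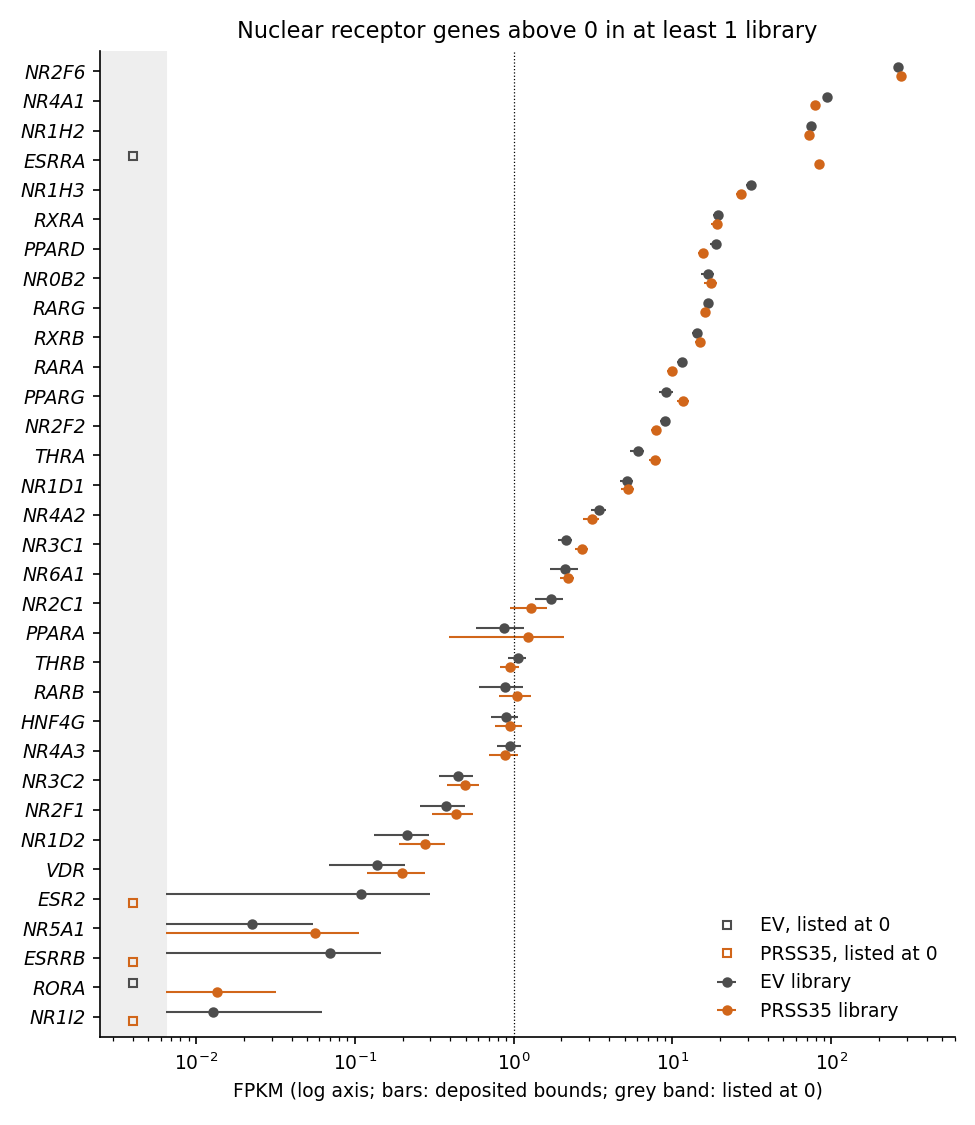
FPKM of the 33 nuclear receptor genes above 0 in at least 1 library, on a log axis, with EV in grey and PRSS35 in orange. Bars are the deposited bounds, cut at the edge of the grey band where the lower bound is 0, open squares mark genes listed at 0 in that library, and the dotted line is 1 FPKM. NR2F6 sits highest at 264.2 and 275.1 FPKM, and the points of the libraries lie close together except for ESRRA, with 0 in EV and 84.2 in PRSS35.

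The RXRs are the shared heterodimer partners. RXRA had 19.4 FPKM (bounds 18.0 to 20.9) in EV and 19.1 (bounds 17.6 to 20.5) in PRSS35. RXRB had 14.4 FPKM (bounds 13.4 to 15.4) in EV and 14.9 (bounds 13.9 to 16.0) in PRSS35, and its locus overlaps that of the zinc transporter gene SLC39A7 by 28 bases. RXRG, the form known from muscle and brain, was listed at 0 in both libraries. The bounds of the libraries overlapped for RXRA and RXRB, and their log2 changes were -0.03 and 0.05, with signs that depended on the scaling. RXR mRNA summed to 33.8 FPKM in EV and 34.0 in PRSS35. With sequences outside the primary chromosomes counted, each library holds 6 entries named RXRB, of which only 1 was used here. The FPKM of the others is not given, so RXRB and this sum may be understated and the ratios to RXR overstated. The 14 genes counted here as RXR partners are THRA, THRB, the RAR and PPAR genes, NR1H2, NR1H3, NR1H4, VDR, NR1I2 and NR1I3. They summed to 170.7 FPKM in EV and 164.2 in PRSS35, which is 5.05 and 4.83 times the RXR level. NR4A genes were not counted, among them NR4A1 at 94.5 FPKM in EV and 79.2 in PRSS35, so the ratios hold for these 14 only. As counted here, the mRNAs of the 14 genes exceeded the RXR mRNAs in both libraries, by similar ratios.

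Among these 14 genes the liver X receptors, which sense oxysterols and drive cholesterol efflux and fatty acid synthesis, held 61.8% of the FPKM in EV and 60.6% in PRSS35. NR1H2 (LXRβ) had 74.3 FPKM (bounds 70.5 to 78.1) in EV and 72.5 (bounds 68.8 to 76.3) in PRSS35. NR1H3 (LXRα), the form characteristic of liver, had 31.2 FPKM (bounds 29.2 to 33.1) in EV and 27.0 (bounds 25.1 to 29.0) in PRSS35, a log2 change of -0.20 with separate bounds. The β form was thus the more abundant in both libraries, by 2.38 times in EV and 2.68 times in PRSS35. The NR1H3 locus overlaps that of ACP2, a lysosomal phosphatase gene on the opposite strand, by 548 bases, and ACP2 had 40.4 and 44.8 FPKM. The kit used does not mark strand and strand use in the counting is not stated, so reads from this overlap could not be assigned by strand. The part of the overlap in the NR1H3 difference was not tested. With FPKM divided by the sum over named loci, the bounds of NR1H3 overlapped. NR1H4 (FXR), the bile acid receptor, was listed at 0 in both libraries.

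The peroxisome proliferator-activated receptors respond to fatty acids and their derivatives, and all 3 were expressed. PPARD, a broadly expressed form, had 18.7 FPKM (bounds 17.3 to 20.2) in EV and 15.6 (bounds 14.6 to 16.6) in PRSS35. PPARG, the form known for adipocyte differentiation, had 9.16 FPKM (bounds 8.24 to 10.1) in EV and 11.7 (bounds 10.6 to 12.8) in PRSS35. PPARA, the main form of normal hepatocytes and a driver of fatty acid oxidation, had 0.875 FPKM (bounds 0.580 to 1.17) in EV and 1.24 (bounds 0.392 to 2.08) in PRSS35. The bounds were separate for PPARD, which was lower in PRSS35 with a log2 change of -0.25, and for PPARG, which was higher with a log2 change of 0.32. PPARD thereby exceeded PPARG by 2.05 times in EV and by 1.33 times in PRSS35, while the sum over the PPARs was 28.8 and 28.5 FPKM. The bounds of PPARD correspond to about 683.9 fragments in EV and 963.0 in PRSS35, more in the library with the lower FPKM. PPARG carries the annotated identifier in EV and that of an assembled locus in PRSS35, and the part of these facts in the differences was not tested. PPARA lay far below the others, and its wide bounds in PRSS35, which correspond to about 8.58 fragments, allow a log2 change from -0.64 to 0.96. An unnamed locus over an annotated PPARA exon held 5.29 FPKM in EV, which corresponds to about 17.0 fragments beside 35.1 for PPARA itself.

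The retinoic acid receptors showed RARG with 16.9 FPKM (bounds 15.8 to 17.9) in EV and 16.1 (bounds 15.1 to 17.2) in PRSS35. RARA had 11.5 FPKM (bounds 10.7 to 12.2) in EV and 9.99 (bounds 9.26 to 10.7) in PRSS35, a log2 change of -0.18. RARB, itself a gene that retinoic acid induces, stayed just under the limit at 0.878 and 1.05 FPKM, and an unnamed locus over one of its annotated exons held 1.09 FPKM in EV, about 14.7 fragments beside 42.3 for RARB itself. Bounds overlapped for all 3 genes, with those of RARA touching by little. With upper quartile scaling, the bounds of RARA became separate. Of the thyroid hormone receptors, THRA had 6.05 FPKM (bounds 5.45 to 6.65) in EV and 7.82 (bounds 7.13 to 8.52) in PRSS35. THRB, the main hepatic form, had 1.07 FPKM (bounds 0.926 to 1.2) and 0.957 (bounds 0.824 to 1.09). THRA was higher in PRSS35 with a log2 change of 0.32 and separate bounds, while the bounds of THRB overlapped. THRA shares 3962 bases in EV and 3967 in PRSS35 with NR1D1, which runs in the opposite direction, so reads of this stretch cannot be told apart between the genes.

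The receptors for vitamin D and drugs were low or listed at 0. VDR, the vitamin D receptor, had 0.138 FPKM (bounds 0.0691 to 0.207) in EV and 0.199 (bounds 0.120 to 0.278) in PRSS35. NR1I2 (PXR), a sensor of drugs and other foreign compounds, had 0.0129 FPKM in EV and was listed at 0 in PRSS35, with an upper bound of 0.0626 in EV. NR1I3 (CAR), another such sensor, was listed at 0 in both libraries, and its locus overlaps that of TOMM40L, at 10.0 and 11.5 FPKM. None of these 3 genes was expressed by the limit of 1 FPKM, where a listed 0 may be a failed estimate.

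Among the steroid hormone receptors, the glucocorticoid receptor NR3C1 was the only expressed member, with 2.13 FPKM (bounds 1.92 to 2.34) in EV and 2.68 (bounds 2.43 to 2.94) in PRSS35. Its log2 change was 0.23 with separate bounds, which overlapped with upper quartile scaling. An unnamed locus inside NR3C1 that overlaps its annotated exons held 0.619 FPKM in EV and 1.43 in PRSS35, and its part in the difference was not tested. The mineralocorticoid receptor NR3C2 had 0.447 and 0.494 FPKM. The estrogen receptor gene ESR2 had 0.110 FPKM (bounds 0 to 0.298) in EV and was listed at 0 in PRSS35. ESR1, the other estrogen receptor, and PGR, the progesterone receptor, were listed at 0 in both libraries. NR3C2 was thus low but detected in both libraries, with bounds that correspond to about 71.1 and 74.7 fragments.

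Orphan receptors, whose natural ligands are unknown or debated, gave the highest levels. NR2F6 (EAR2), a COUP-TF family repressor, had 264.2 FPKM (bounds 253.9 to 274.5) in EV and 275.1 (bounds 264.3 to 286.0) in PRSS35. It held 43.5% of the summed FPKM of all members except ESRRA in EV and 46.2% in PRSS35, and ranked 482 among the 10133 expressed genes. NR2F2 (COUP-TFII) was far lower, at 9.03 FPKM (bounds 8.42 to 9.65) in EV and 7.94 (bounds 7.37 to 8.50) in PRSS35. The bounds of the libraries overlapped for NR2F6 and NR2F2, with log2 changes of 0.06 and -0.17. With upper quartile scaling the bounds of NR2F2 became separate, and with that scaling and with centring on the median the sign of the NR2F6 change turned. NR2F1 (COUP-TFI) had 0.378 and 0.432 FPKM. The COUP-TF class was in effect represented by NR2F6, whose bounds overlapped between the libraries.

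The NR4A genes are immediate-early genes whose products act without a classical ligand. NR4A1 (NUR77) had the next highest mean level, at 94.5 FPKM (bounds 90.4 to 98.7) in EV and 79.2 (bounds 75.03 to 83.3) in PRSS35. NR4A2 (NURR1) had 3.47 FPKM (bounds 3.10 to 3.84) in EV and 3.11 (bounds 2.75 to 3.46) in PRSS35, and NR4A3 (NOR1) had 0.947 and 0.886. NR4A1 was lower in PRSS35 with a log2 change of -0.25 and separate bounds, whereas the bounds overlapped for NR4A2 and NR4A3. NR4A1 carries the annotated identifier in EV and an assembled one in PRSS35. An unnamed locus of 218 bases over an annotated NR4A1 exon, at chr12:52431013-52431230 (hg19), held 212.2 FPKM in EV, which corresponds to about 42.4 fragments, beside about 2098 for NR4A1 itself. The part of the identifiers and of this locus in the NR4A1 difference was not tested. NR2F6, NR4A1 and NR1H2 together made up 71.4% of the summed FPKM without ESRRA in EV and 71.7% in PRSS35.

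ESRRA (ERRα) is an orphan receptor that drives mitochondrial and oxidative genes with PGC-1 coactivators. The EV table gives it an FPKM of 0 and that of PRSS35 a value of 84.2 (bounds 80.0 to 88.4). In PRSS35 its value was below that of NR2F6 only, with bounds that overlap those of NR4A1. In all, 1.39% of expressed genes are listed at 0 in 1 of the libraries. The locus, at chr11:64073000-64084212 (hg19), carries an assembled identifier in both libraries and overlaps TRMT112, a methyltransferase cofactor gene on the opposite strand, by 249 bases. TRMT112 had 310.2 FPKM in EV and 283.5 in PRSS35, with overlapping bounds. The peroxiredoxin gene PRDX5, next to it, had 1903 and 1234 FPKM. PLCB3, a phospholipase C gene upstream of ESRRA, was listed the other way round, with 12.7 FPKM in EV and 0 in PRSS35. Both libraries thus hold an expressed gene of this neighbourhood at 0, but not the same gene. The other ERR genes were not expressed, with ESRRB at 0.0697 FPKM (bounds 0 to 0.147) in EV and listed at 0 in PRSS35, and ESRRG listed at 0 in both.

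**Figure D2:**
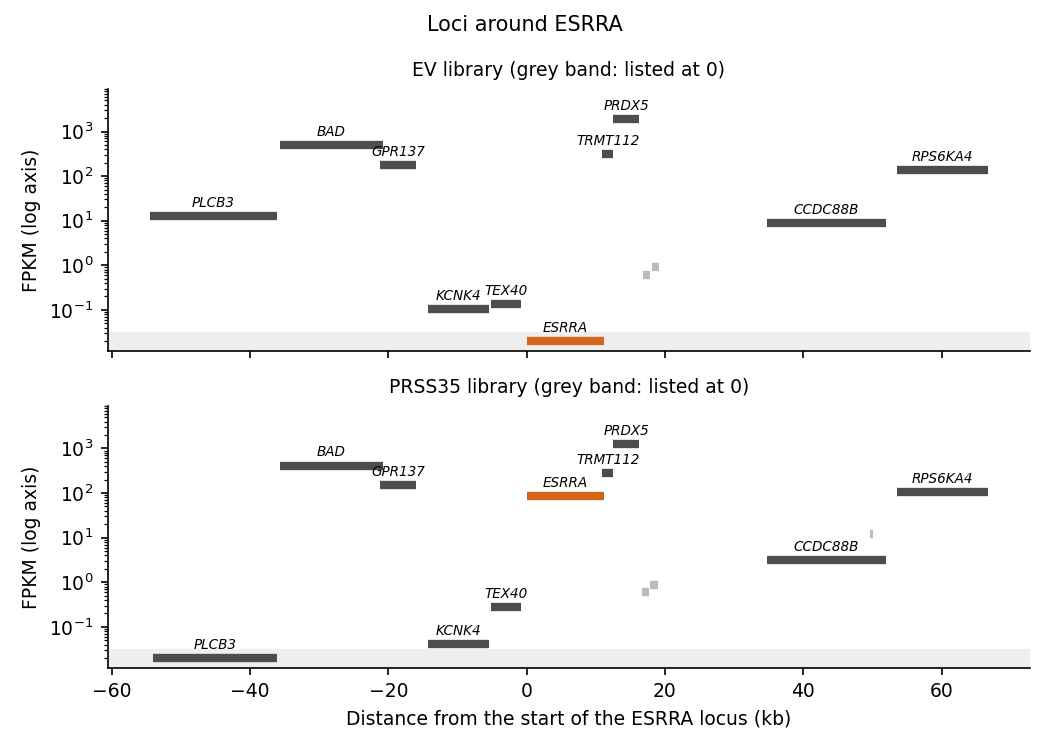
FPKM on a log axis of the loci around ESRRA in the EV library (top) and the PRSS35 library (bottom), against the distance in kb from the start of the ESRRA locus. Each bar spans a locus, with ESRRA in orange, other named genes in dark grey and unnamed loci in light grey, and bars in the grey band are listed at 0. ESRRA is in that band in EV and PLCB3 in PRSS35, while BAD has 492.7 and 413.1 FPKM and GPR137 has 173.6 and 153.5.

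The clock receptors and the remaining orphans were low to moderate. NR1D1 (REV-ERBα), a repressor of the clock gene ARNTL, had 5.17 FPKM (bounds 4.68 to 5.66) in EV and 5.25 (bounds 4.78 to 5.73) in PRSS35. NR1D2 (REV-ERBβ) had 0.213 and 0.279 FPKM. RORA, which activates the same gene, was listed at 0 in EV and had 0.0136 FPKM (upper bound 0.0320) in PRSS35, and RORB was listed at 0 in both. The REV-ERB arm of the clock was thus detected at the mRNA level and RORA was at most barely above 0, with overlapping bounds between the libraries for each.

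NR0B2 (SHP), a corepressor-like receptor that FXR induces in liver, had 16.8 FPKM (bounds 15.1 to 18.4) in EV and 17.6 (bounds 15.9 to 19.2) in PRSS35. It was thus expressed in libraries in which FXR was listed at 0. NR6A1 (GCNF), known from germ cells, had 2.12 FPKM (bounds 1.69 to 2.55) in EV and 2.19 (bounds 1.98 to 2.40) in PRSS35. NR2C1 (TR2) had 1.72 FPKM (bounds 1.37 to 2.06) in EV and 1.29 (bounds 0.953 to 1.63) in PRSS35. The bounds overlapped for these 3 genes, and the NR2C1 values rest on about 99.7 and 58.8 fragments. HNF4G, a relative of HNF4A, had 0.891 and 0.946 FPKM. NR5A1 (SF-1), a regulator of steroidogenesis, had 0.0226 and 0.0563 FPKM, which correspond to about 2 and 5 fragments. NR2C2 (TR4), NR2E3, a photoreceptor gene, and NR0B1 (DAX1) were listed at 0 in both libraries. Next to NR2C2, the overlapping mitochondrial ribosomal gene MRPS25 had 10.9 FPKM in EV and 60.8 in PRSS35, and whether reads of NR2C2 entered it was not tested.

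In total 10 members were listed at 0 in both libraries. In 4 of them, NR1I3, NR2C2, ESR1 and ESRRG, the locus carries an assembled identifier in both libraries, beside 7.95% of the 9504 names at 0 in both, and in NR1H4 and PGR it does so in 1 library. The other 4, NR0B1, NR2E3, RXRG and RORB, carry the annotated identifier throughout. A further 12 members lay above 0 in at least 1 library but under a mean of 1 FPKM, with log2 changes from -0.15 to 0.13. Separate bounds were found in 0 of these 12, and 8 of them were above 0 in both libraries. Over all 24991 names without a filter the share with separate bounds was 18.1%, beside 39.0% of expressed genes. The share among all names under 1 FPKM is not given here, so the 0 is not a result about these members. The bounds of the low members thus overlapped between the libraries in every case, which does not show that their levels were equal.

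**Figure D3:**
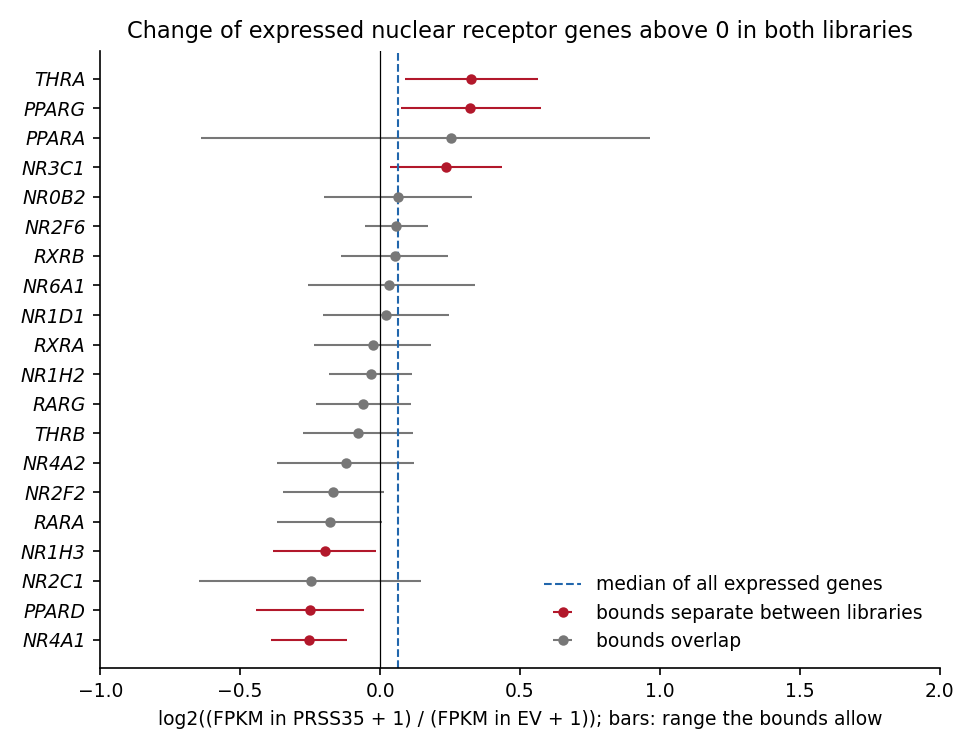
Log2 change from EV to PRSS35 of the 20 expressed nuclear receptor genes above 0 in both libraries, with bars for the range that the deposited bounds allow, red where the bounds of the libraries are separate and grey where they overlap. The dashed line is the median of all expressed genes, 0.06. THRA (0.32), PPARG (0.32) and NR3C1 (0.23) are the red points to the right, and NR4A1 (-0.25), PPARD (-0.25) and NR1H3 (-0.20) those to the left.

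With ESRRA left out, the expressed members ranked by mean FPKM form 19 pairs of neighbours, of which 4 stood in another order in EV than in PRSS35. The bounds of the pair overlapped in both libraries for 3 of them, PPARD with NR0B2, NR0B2 with RARG, and PPARA with THRB. In 14 pairs they overlapped in at least 1 library, and in 5 pairs they were separate in both.

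Receptors act through cofactors. Of 15 coactivator genes, 10 were expressed, and the arginine methyltransferase genes PRMT1 (joined with ADM5 in its label), at 454.5 FPKM in EV and 403.3 in PRSS35, and CARM1, at 78.1 and 66.9, were the highest. Both were lower in PRSS35 with separate bounds, as was PPRC1, a PGC-1 relative, at 15.04 and 12.9 FPKM. NCOA3 (SRC-3) was higher, at 2.63 and 3.28 FPKM. The PGC-1 genes that serve PPARα and ERRα were low, with PPARGC1A at 0.0894 and 0.0578 FPKM and PPARGC1B at 0.207 and 0.194. Of 11 corepressor genes, 8 were expressed, led by GPS2 at 210.3 and 227.6 FPKM with overlapping bounds. The deacetylase gene HDAC3, at 62.4 and 73.1 FPKM, and TBL1X, of the same corepressor complex, at 14.7 and 16.9, were higher in PRSS35 with separate bounds. Past 2-fold were 0 of the expressed coactivators and corepressors, and their median log2 changes were -0.01 and 0.09, the former moving to -0.21 with a limit of 5 FPKM. KAT2B, a coactivator acetyltransferase under 1 FPKM, also had separate bounds, at 0.863 and 0.523.

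The chaperones that fold unliganded steroid receptors were abundant, with 9 of 10 genes compared and all 9 expressed. HSP90AB1 was not compared, since its joined name differs between the libraries. Bounds were separate and higher in PRSS35 for the heat shock protein gene HSPA8, at 546.2 and 602.4 FPKM, the immunophilin gene FKBP4, at 182.3 and 200.9, and DNAJB1, at 62.2 and 77.0. For HSPA8 the bounds correspond to about 3329 and 2224 fragments, fewer in PRSS35. They were separate and lower for the ubiquitin ligase gene STUB1, at 365.2 and 311.2 FPKM, and HSP90AA1, at 62.0 and 49.2. For the 9 genes the median log2 change was 0.08, close to the 0.06 of all expressed genes.

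Enzymes and carriers that make, clear or deliver the ligands numbered 27, of which 14 were expressed. FABP5, a fatty acid carrier that feeds PPARδ, had 71.3 FPKM in EV and 86.4 in PRSS35, and ALDH1A1, a retinoic acid-making enzyme, had 53.9 and 60.6. The steroid reductase SRD5A1 had 7.44 and 10.3 FPKM. These 3 genes were higher in PRSS35 with separate bounds, while CYP27B1, which activates vitamin D, was lower, at 4.13 and 2.85 FPKM. The retinal reductase gene DHRS3, at 58.0 and 62.3 FPKM, had overlapping bounds. Over the 14 genes the median log2 change was 0.18. Below 1 FPKM, bounds were also separate for DIO3, which inactivates thyroid hormone, at 0.749 and 0.278, and for the sulfotransferase gene SULT2A1, at 0.0372 and 0.223. ALDH1A3, HSD11B1, CH25H and CYP7B1 were listed at 0 in both libraries.

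Known target genes were grouped in lists by receptor, and the genes of the circadian clock were added as a list of their own. These 8 lists held 50 expressed genes in all, so the counts below cover clock genes as well as receptor targets. Of these, 42 (84%) had a higher value in PRSS35, beside 60.7% of all expressed genes, and 24 (48%) were higher with separate bounds, beside 24.7%. Lower with separate bounds were 4 of the 50, beside 14.3% of all expressed genes. After centring on the median of all genes or upper quartile scaling, 40 of the 50 were higher, beside 50% and 51.2% of all genes. The median log2 change of the 50 was 0.19, and 3 were higher (1.89% of all expressed genes) and 1 was lower (1.84% of all) by 2-fold or more. Of these 4 genes, ANGPTL4 and DBP passed only through a listed 0, which can be a failed estimate. The lists had been drawn up with earlier results of these libraries known, so these shares describe the libraries and are not independent evidence of a direction.

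Of 11 expressed PPAR targets, 5 were higher with separate bounds (24.7% of all expressed genes) and 0 were lower (14.3% of all). Their median log2 change was 0.21. CPT1A, the entry step of mitochondrial fatty acid oxidation, had 10.0 FPKM in EV and 14.8 in PRSS35, and PLIN2, a lipid droplet coat gene, had 16.4 and 22.4. HADHA, of the mitochondrial trifunctional protein, had 91.2 and 110.1 FPKM. Also among the 5 is ANGPTL4, an inhibitor of lipoprotein lipase, with a listed 0 in EV and 37.3 FPKM in PRSS35, and it is one of the 3 genes past 2-fold. ACAA2, at 36.8 and 40.6 FPKM, had overlapping bounds. Among the LXR targets, 4 genes were expressed and all had higher values in PRSS35, beside 60.7% of all expressed genes. SCD, the stearoyl-CoA desaturase, had 131.2 FPKM in EV and 205.1 in PRSS35, and ABCA1, the cholesterol exporter, had 2.14 and 2.88, both with separate bounds. LPCAT3, a phospholipid-remodelling enzyme gene, had 38.8 and 42.6 FPKM with overlapping bounds. For the LXR targets the median log2 change was 0.25, while the receptors NR1H2 and NR1H3 themselves had values no higher in PRSS35, except that NR1H2 was higher by 0.01 with FPKM divided by the sum over named loci. ABCG5, ABCG8 and PLTP were listed at 0 in both libraries, and MYLIP, under 1 FPKM, had 0.216 and 0.500 with separate bounds.

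Of 11 bile acid genes only SLC51B, an exporter at 27.1 and 29.0 FPKM, and SLC27A5 were expressed. SLC27A5, which activates bile acids and fatty acids with coenzyme A, had 13.8 FPKM (bounds 12.7 to 14.9) in EV and 39.5 (bounds 35.7 to 43.3) in PRSS35, a log2 change of 1.45. Its bounds correspond to about 643.3 fragments in EV and 433.6 in PRSS35, fewer in the library with the higher FPKM. CYP7A1 and CYP8B1 of bile acid synthesis and the transporters ABCB11, SLC10A1 and SLC51A were listed at 0 in both libraries. All 4 expressed PXR and CAR targets were higher in PRSS35 with separate bounds, beside 24.7% of all expressed genes. CYP2B6, a drug-metabolising P450, had 1.78 FPKM (bounds 1.48 to 2.08) in EV and 4.63 (bounds 3.27 to 5.99) in PRSS35, a log2 change of 1.02. Here too the bounds correspond to fewer fragments in PRSS35, about 138.8 in EV and 46.5 in PRSS35, and what part this has in the difference was not tested. The export pump ABCC2 had 6.98 and 10.3 FPKM, ALAS1 of haem synthesis had 41.4 and 49.3, and the P450 reductase POR had 170.6 and 189.8. PXR had 0.0129 FPKM and a listed 0 in these libraries, and CAR a listed 0 in both.

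Of the thyroid hormone receptor targets, G6PC, the last step of glucose production, had 17.6 FPKM in EV and 27.0 in PRSS35 with separate bounds, and ME1, a malic enzyme, had 5.67 and 6.26 with overlapping bounds. HR, a corepressor gene far below 1 FPKM, had 0 in EV and 0.0375 in PRSS35. Of 8 expressed glucocorticoid receptor targets, 4 were higher with separate bounds, beside 24.7% of all expressed genes. DUSP1, a phosphatase of MAP kinases, had 101.1 and 128.3 FPKM, and CEBPD, a transcription factor gene, had 19.5 and 26.1. TSC22D3 (GILZ) had 7.93 and 10.6 FPKM, and the gluconeogenic gene PCK1 had 7.23 and 9.56. PER1, which is also a clock gene, was lower, at 15.8 and 13.1 FPKM. NFKBIA, at 29.0 and 26.3, had overlapping bounds. The median log2 change of the list was 0.28, and the change of NR3C1 itself was 0.23.

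The clock list was mixed. Among 10 expressed genes, 3 were higher with separate bounds, beside 24.7% of all expressed genes. They were BHLHE40 at 19.1 and 27.8 FPKM, NFIL3 at 6.57 and 8.85, and NPAS2 at 1.81 and 2.39. Lower with separate bounds were PER1, CRY2 at 7.33 and 6.12 FPKM, and DBP, an output gene of the clock, with 18.5 FPKM in EV and a listed 0 in PRSS35. In this list the median log2 change was 0.08, and it turned to -0.22 when the limit on mean FPKM was raised to 5. Of 11 expressed ERRα targets, all of mitochondrial metabolism, 4 were higher with separate bounds (24.7% of all expressed genes) and 1 was lower (14.3%). ATP5B had 632.9 and 698.2 FPKM, SDHB had 89.6 and 111.6, SDHA had 90.7 and 103.1, and SOD2 had 61.0 and 70.5, while COX5B, at 1114 and 936.0, was lower. MDH2, at 840.2 and 782.2 FPKM, had overlapping bounds. Their median log2 change was 0.07, near the 0.06 of all expressed genes. The bounds of SDHB correspond to about 2447 and 1315 fragments and those of SDHA to about 2386 and 1540, fewer in PRSS35, where the FPKM was higher.

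**Figure D4:**
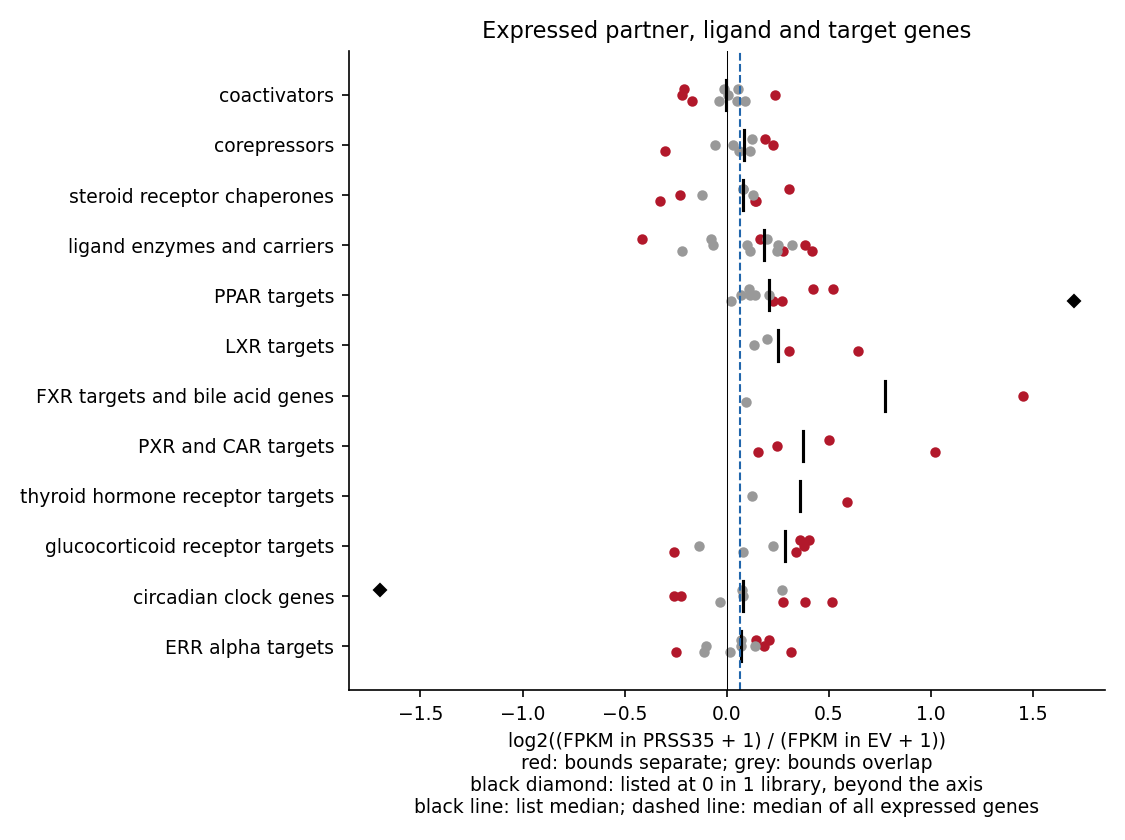
Log2 change from EV to PRSS35 of the expressed genes in each cofactor, chaperone, ligand, target and clock list. Red points have separate bounds, grey points have overlapping bounds, and a short black line is the list median. The dashed line is the median of all expressed genes, 0.06, and black diamonds mark ANGPTL4 and DBP, each listed at 0 in 1 library and beyond the axis. The median lines of the PPAR (0.21) and LXR (0.25) lists lie to the right of the dashed line and that of the coactivators (-0.01) to its left.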

How the data were processed

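Reads were mapped by the authors against hg19 with TopHat2 2.1.0, and they deposited 1 table per library with an FPKM for each gene or assembled locus and its lower and upper bound, as Cufflinks writes them. The submitters' processing notes name Cuffdiff 2.2.1. The annotation release is not given in the sources used here. Names inside joined labels (RXRA is in one shared with a microRNA gene) were matched, and FPKM was summed over loci of a name on the primary chromosomes. Expression was called at a mean FPKM of at least 1, a change at 2-fold with a pseudocount of 1 FPKM, and bounds as separate where they did not overlap. With 1 library per condition, no test was fitted. Fragments were computed from FPKM and the upper bound. Of 13117 annotated loci with a name in GENCODE v44lift37, 98% overlapped it, and coordinates were made 1-based. The calculations were tested on simulated data. The members and lists were chosen with earlier results of these data known. Named genes are every member, and list genes past 2-fold, with separate bounds or among the 2 highest of their list. The PPARGC1 genes and those named at 0 were chosen after their values were seen. SREBF1 and G6PC1 had no common label in both libraries and were not compared, and G6PC was found by its older symbol. Some list genes that the rule would name are not reported here. Python 3.11.15, numpy 2.4.6, pandas 2.3.3 and matplotlib 3.10.9 were used.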

Additional observations from a re-analysis of the deposited data

How the results depend on the processing

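No paired analysis was possible because EV and PRSS35 have 1 library each, and no library could be left out. Under the 11 alternatives, the number of members lower by 2-fold stayed at 0 in each setting run for it. The number higher by 2-fold was 0 instead of 1 with genes at 0 in 1 library left out, since ESRRA is then removed by construction. The number of expressed members was 43 without a filter on FPKM, where every member counts, and between 15 and 21 otherwise. Separate bounds were found in 6 to 8 members. The median log2 change of the members ran from -0.09 to 0.01, the former with centring on the median and the latter with FPKM divided by the sum over named loci. In 219 recomputed changes of the expressed members other than ESRRA, 0 moved by more than 0.5 of the width that the bounds allow as reported. The value for ESRRA, listed at 0 in EV, depends on the pseudocount. Signs turned for 6 members, NR1D1, NR1H2, NR2F6, NR6A1, RXRA and RXRB, all with a log2 change of 0.06 or less in size, and only under a scaling or centring. With a mean FPKM of at least 5, the list medians of the coactivators and the clock genes moved from -0.01 and 0.08 to -0.21 and -0.22. Without a filter those of the bile acid, PXR and CAR, and thyroid hormone receptor lists moved to 0, 0.09 and 0.11. Bounds cover error within a library only, and a difference between the conditions cannot be told apart from one between culture dishes. Protein levels and ligands were not measured in these files.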
